A study of Mus musculus with 6 samples.

Results

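DNA methylation was examined at the 10 mouse genes through which peptides are presented on MHC class II molecules, in germinal centre B cells with and without Tet2. The genes were the 3 classical chain genes H2-Aa, H2-Ab1 and H2-Eb1, the invariant chain gene Cd74, the loading factor genes H2-DMa, H2-DMb1 and H2-DMb2, the loading inhibitor genes H2-Oa and H2-Ob, and the transactivator gene Ciita. They are 10 of the 21883 protein-coding genes in the RefSeq gene table. A CpG position (1 strand of a CpG) was taken as belonging to a gene when it lay within its span or within 5 kb of either end and was read at least 10 times in all 6 libraries. That rule gave 432 positions out of 1463044 in the whole series. Of 561 positions at these genes listed in any library, 129 were left out for lack of coverage in at least 1 library.

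The libraries came from germinal centre B cells of C57BL/6 mouse spleens, 3 with the genotype label TET2 Wild-Type and 3 with TET2 Knock-Out, called Tet2 WT and Tet2 KO below. The sources used here do not give the deleted part of Tet2, any Cre driver, immunisation, age, sex or the number of mice behind a library. Each library held 174375503 to 203863392 reads over CpGs, a mean of 101 to 125 reads per listed position. As a check of the labels, 6 CpG positions of Tet2 were read 32 to 168 times in every WT library and were listed in no KO library, and 108 others were read in all 6. Levels are percentages of reads called methylated, which add 5-methylcytosine and 5-hydroxymethylcytosine. RNA was not measured, so the values say nothing of how strongly a gene was transcribed.

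Class II molecules carry peptides from endocytosed proteins to the surface of B cells, where T follicular helper cells read them, and this contact is known to govern which germinal centre B cells go on dividing. The chains assemble on the invariant chain, whose last fragment is exchanged for peptide by H2-M, the product of the H2-DM genes, while H2-O, the product of H2-Oa and H2-Ob, binds H2-M and restrains it. Ciita switches on the whole set without binding DNA itself, by docking on factors that sit on the W, X and Y boxes of class II promoters. In C57BL/6 mice the partner of the H2-Eb1 chain is not made, so the surface molecule is the pair of H2-Aa and H2-Ab1 products. Tet2 oxidises 5-methylcytosine as a first step in its removal.

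The promoter sequences show which parts of these genes the method could read. Reads start at CCGG sites, where MspI cuts, so a stretch with few CpGs and no CCGG is mostly out of reach. Below are the 250 bases before the start site of H2-Oa (GRCm38.p6, chr17:34092129-34092378, plus strand) and of the first start site of H2-DMa (chr17:34122582-34122831, plus strand) from RefSeq, 5′ to 3′, with CpGs in capitals.
H2-Oa: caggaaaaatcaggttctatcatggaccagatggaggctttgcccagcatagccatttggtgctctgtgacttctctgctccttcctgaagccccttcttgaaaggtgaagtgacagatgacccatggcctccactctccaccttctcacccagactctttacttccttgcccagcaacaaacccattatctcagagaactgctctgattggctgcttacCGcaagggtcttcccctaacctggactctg
H2-DMa: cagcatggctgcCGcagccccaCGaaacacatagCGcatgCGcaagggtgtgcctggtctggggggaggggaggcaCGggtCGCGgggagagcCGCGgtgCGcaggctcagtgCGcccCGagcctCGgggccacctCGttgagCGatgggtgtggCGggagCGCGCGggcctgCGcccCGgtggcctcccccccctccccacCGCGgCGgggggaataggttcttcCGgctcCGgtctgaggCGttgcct
The H2-Oa sequence held 1 CpG, no CCGG and 0 covered positions. The H2-DMa sequence held 27 CpGs, 3 CCGG sites and 14 covered positions, at which no library exceeded 7.69% methylation.

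Most class II starts likewise had few CpGs and no covered position. RefSeq promoter windows, 250 bases before to 50 after a start, were at hand for 7 of the 10 genes and not for H2-Ab1, Ciita and Cd74. The windows of H2-Oa, H2-Ob, H2-Aa, H2-Eb1, H2-DMb1 and H2-DMb2 held 0 to 3 CpGs and 0 covered positions. That of H2-DMb1 held 1 CCGG site and the others none. Over all 32851 windows the median was 7 CpGs, 31.4% held 3 or fewer, and 39.1% held a covered position. The stretches from 125 to 30 bases before the start of 4 of these genes are shown because each holds a match to the Y box core, and those of H2-Eb1 and H2-DMb1 also one to the X box part, with the matches in capitals.
H2-Aa (chr17:34287853-34287948, minus strand): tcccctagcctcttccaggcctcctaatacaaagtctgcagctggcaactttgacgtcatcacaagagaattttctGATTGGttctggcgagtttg
H2-Eb1 (chr17:34305742-34305837, plus strand): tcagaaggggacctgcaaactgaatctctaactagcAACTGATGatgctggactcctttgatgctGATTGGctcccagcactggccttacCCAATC
H2-DMb1 (chr17:34153066-34153161, plus strand): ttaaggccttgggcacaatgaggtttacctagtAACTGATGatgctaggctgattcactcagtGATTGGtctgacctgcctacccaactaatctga
H2-Ob (chr17:34238780-34238875, plus strand): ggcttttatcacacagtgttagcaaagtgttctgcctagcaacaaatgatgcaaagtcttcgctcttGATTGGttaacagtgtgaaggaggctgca
The Y box core was searched as GATTGG on both strands and began at -49 in H2-Aa, -60 in H2-Eb1, -62 in H2-DMb1 and -58 in H2-Ob, counted from the start site at 0. It began at -44 in H2-Oa and at -91 in H2-DMb2. At H2-DMa the window of the first start site held no match, and in that of the second it began at -199. The reverse-strand match in H2-Eb1 began at -35. In all promoter windows, 16.1% held the motif and 7.30% held it from -100 to -30. The X box part AACNGATG, also searched on both strands and not overlapping the Y box core, began at -89 in H2-Eb1, -92 in H2-DMb1 and -121 in H2-DMb2, against 2.32% of all windows with a match. The methylation of these boxes was not analysed here, and the results below concern gene bodies and flanks.

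At the 119 member positions with a mean methylation of 5% to 95%, which were the ones tested, KO libraries were mostly higher. The KO mean was above the WT mean at 103 of the 119, and the median difference was 9.42 percentage points. Over all 525213 tested positions in the series, 58.9% had the higher mean in KO and the median difference was 1.69 points. In 31 of the 119 every KO library was above every WT library, where 8.3% of all tested positions did so, and in 0 every KO library was below. WT replicate 1 was the lowest WT library in 13 of the 20 tested member tiles, and in 42.0% of all tested tiles. Without it, 93 of the 119 positions had the higher mean in KO, with a median difference of 6.36 points against 1.08 points over all tested positions. Neighbouring positions share reads, so these counts are not counts of independent events.

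The difference varied with the level of methylation. At the 300 member positions with a mean under 20% the median difference was 0 points. Of these, 185 lay in 1 stretch at H2-DMa and 96 in 1 stretch at H2-Ab1. At the 46 positions from 20% to 80% the KO mean was higher at 42, against 62.5% of all positions of that class. The median difference was 15.8 points against 3.54 points over all positions of that class. At the 86 positions over 80% the KO mean was higher at 62, against 52.5% of all, with a median of 3.03 points against 0.355.

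**Figure D1:**
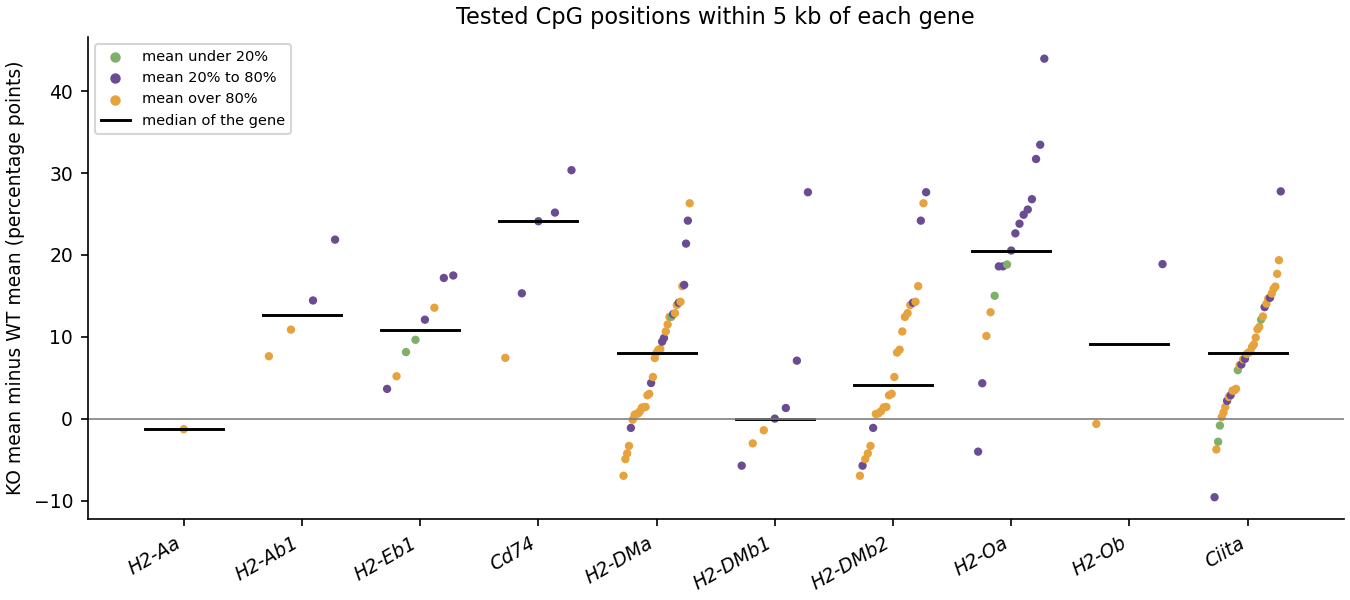
Difference between the KO mean and the WT mean, in percentage points, at each tested CpG position within 5 kb of each gene. Colours give the mean methylation class, black lines the median of the gene, and positions shared by neighbouring genes appear under each. The widest spread above 0 is at H2-Oa, where 16 of 17 positions lie above the line, and the 1 tested H2-Aa position lies below it.

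Positions were also summed over 1 kb tiles, of which 20 of the 30 at these genes were tested. A tile or position was called when the adjusted p was under 0.05 and the group means differed by at least 10 points. Of the 20, 1 was called higher in KO and 0 lower, where 0.685% of 83114 tested tiles were called higher in the series. Of the 119 positions, 1 was called higher and 0 lower, against 0.284% of all tested positions. Both calls were at H2-Oa. Unadjusted p-values were under 0.05 in 9 of the 20 tiles against 11.5% of all tiles, and in 37 of the 119 positions against 8.70% of all. In 9 of the 20 tiles every KO library was above every WT library, against 12.7% of all tested tiles. The tile from 34300001, near H2-Eb1, is in both sets of 9 and holds 0 positions within 5 kb of these genes. The genes were also chosen with earlier results of these data known.

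**Figure D2:**
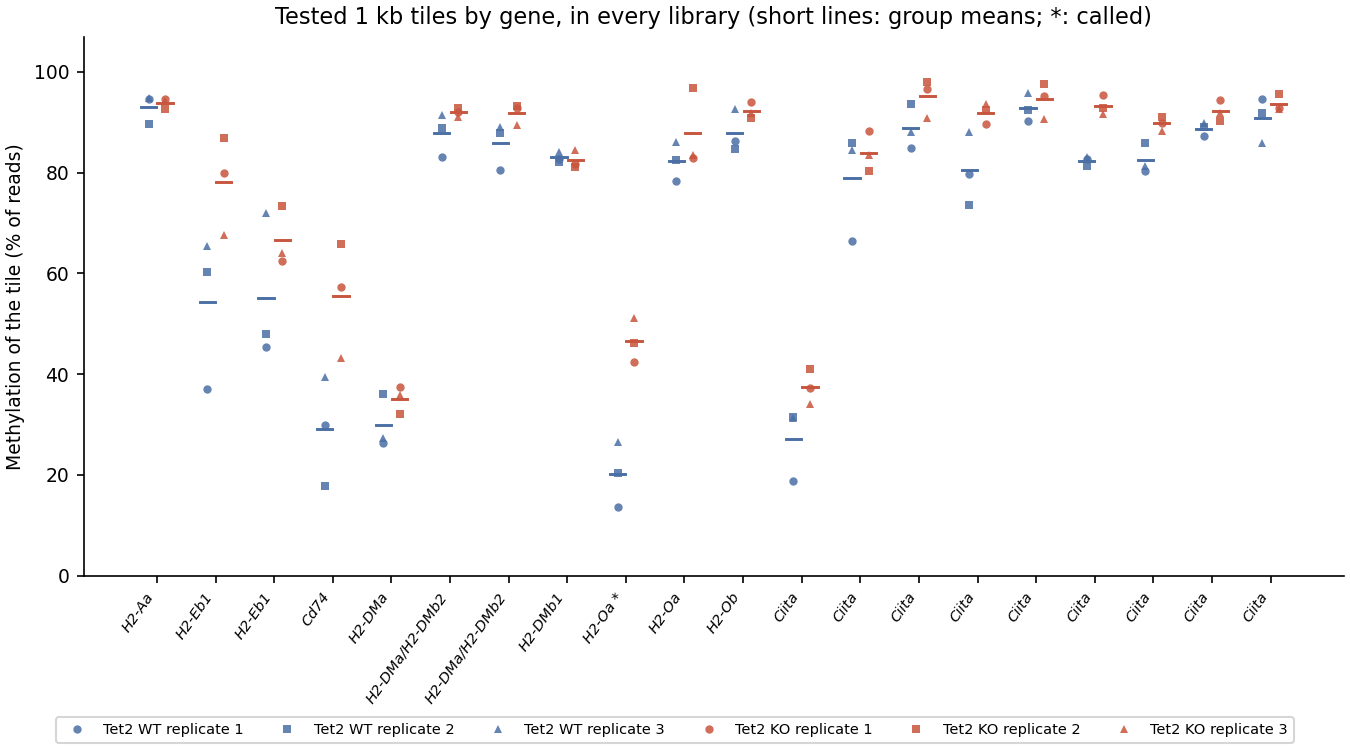
Methylation of the 20 tested tiles, as the percentage of reads, in each of the 6 libraries. Blue symbols are WT, red symbols KO, symbol shapes give the replicate number and short lines the group means. Only the starred H2-Oa tile was called. Its KO values of 42.3% to 51.2% lie above its WT values of 13.6% to 26.6%.

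H2-Oa encodes the alpha chain of H2-O, which is known to be made in naive B cells and to fall in germinal centre B cells. The gene lies on chromosome 17 from 34092379 to 34095234 (GRCm38) on the plus strand. It had 17 covered positions, 13 of them inside the gene from 34094490 to 34094879, which is 2111 to 2500 bases past the start and toward the far end of the gene. The tile that holds these 13, from 34094001 to 34095000, had 13.6%, 20.4% and 26.6% methylation in WT replicates 1, 2 and 3. In KO replicates 1, 2 and 3 it had 42.3%, 46.2% and 51.2%. The groups did not overlap, and the lowest KO library was 15.7 points above the highest WT library.

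The H2-Oa tile rose from 20.2% ± 6.51 in WT to 46.6% ± 4.46 in KO (SD, n = 3 each), by 26.4 points, with an adjusted p of 0.00592 by the limma-moderated quasi-binomial test. Between 1320 and 2106 reads per library stood behind these values. The call held with each library left out in turn, at adjusted p-values from 0.00274 to 0.0323. It was lost when each tile kept its own variance estimate (adjusted p = 0.445), with limma on log2 ratios (0.373) and when all covered tiles entered the fit (0.109), with the same 26.4 points. A change in every cell and a change in the share of cells that carry the methylated form cannot be told apart in these pooled cells.

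Each of the 13 positions in the H2-Oa tile had the higher mean in KO, by 15 to 44.0 points. At 9 of them every KO library was above every WT library, against 8.3% of all tested positions. The largest difference was at the last one, 34094879, which was the called position. It stood at 1.69%, 5.65% and 1.42% in WT and at 26.5%, 63.3% and 50.9% in KO. WT was close to unmethylated there, and KO replicate 1 was the lowest of the KO libraries. The rise was from 2.92% ± 2.37 to 46.9% ± 18.7 (SD, n = 3 each; adjusted p = 0.00457, limma-moderated), on 49 to 301 reads per library. Without KO replicate 2 or KO replicate 3 the call was lost, at adjusted p-values of 0.0901 and 0.0537 (limma-moderated). It was also lost without moderation (adjusted p = 0.599), with limma on log2 ratios (0.674) and when all covered positions entered the fit (0.507).

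The position with the next smallest p, 34094800, read 17.9%, 48.0% and 40.1% in WT and 41.8%, 65.6% and 73.2% in KO, and the groups overlapped (adjusted p = 0.0858, limma-moderated). At 34094831 and 34094832, the strands of 1 CpG, WT ranged from 1.67% to 12.1% on the plus strand and from 0% to 18.7% on the minus strand. KO ranged from 22.9% to 29.8% and from 22.1% to 32.9% on the same strands, so both showed the same separation of groups. The strands of the CpG at 34094707 and 34094708 differed more within a library, 48.4% against 4.17% in WT replicate 3 and 67.3% against 36.8% in KO replicate 1. Over 22110 CpGs of middle methylation read on both strands, the median gap between strands was 13.1 to 23.5 points per library.

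Past the end of H2-Oa, 4 positions from 34096115 to 34096199 were methylated in both groups. Their tile was at 78.4%, 82.4% and 86.0% in WT and 83.0%, 96.9% and 83.6% in KO, and the groups overlapped (adjusted p = 0.638, limma-moderated). Over the gene with its flanks, H2-Oa was at 36.5% ± 2.12 in WT and 59.2% ± 2.78 in KO (n = 3 each, SD). Those groups did not overlap either, but the adjusted p of 0.156 over 13446 gene regions (limma-moderated) did not pass. In the whole series 0% of gene regions were called.

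**Figure D3:**
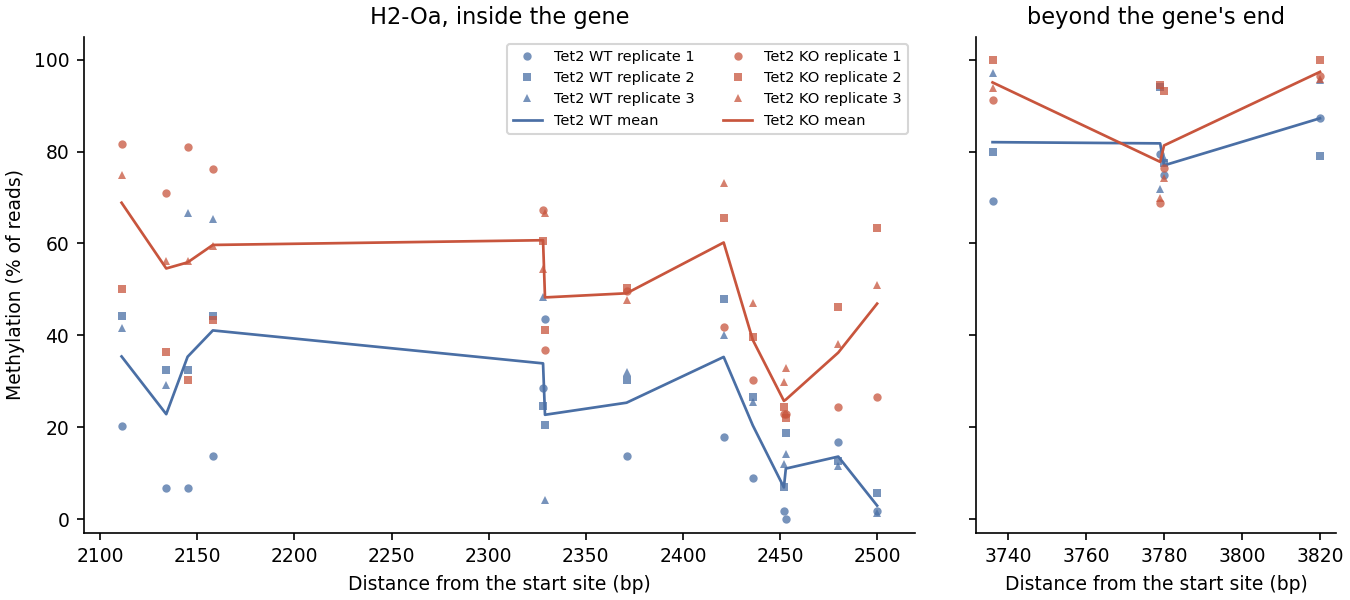
Methylation, as the percentage of reads, at the 17 covered H2-Oa positions against their distance from the start site, 13 inside the gene (left) and 4 beyond its end (right). Symbols are single libraries and lines join the group means. The KO line is above the WT line at each position inside the gene and 1 of the 4 beyond it reverses.

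H2-Ob encodes the beta chain that pairs with the H2-Oa product. Only 3 positions were covered, inside the gene (chromosome 17, 34238905 to 34245908) from 34242550 to 34242688. Their tile was at 86.3%, 84.8% and 92.6% in WT and at 94.0%, 90.8% and 91.9% in KO, and the groups overlapped (adjusted p = 0.621, limma-moderated). At 34242676 the libraries read 53.6%, 65.4% and 81.3% in WT and 87.6%, 86.4% and 82.9% in KO. The groups did not overlap at that position, but the adjusted p was 0.432 (limma-moderated). The difference of 18.9 points did not pass the test.

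H2-DMa encodes the alpha chain of the loading factor H2-M, and its lower end runs into Brd2, a chromatin reader gene. It had 231 covered positions, 189 of them with a mean under 5%. From -4277 to -23 relative to the first start site, 185 positions formed a CpG-dense, unmethylated stretch. It was at 0.299% ± 0.327 in WT against 0.427% ± 0.487 in KO (SD, n = 3 per group), on 20286 to 24936 reads per library. The annotated span begins at 34119693, so much of this stretch lies inside it. No position there exceeded 12.9% in any library. Because H2-DMa runs into Brd2 here, the stretch cannot be assigned to H2-DMa alone. Brd2 with its own 5 kb flanks had 188 covered positions, 98.4% of them under 20%. The promoter window of a second H2-DMa start site, at 34125518, held 0 CpGs and 0 covered positions. Past both start sites, the tile from 34129001 had 26.3%, 36.1% and 27.2% in WT and 37.5%, 32.0% and 35.9% in KO, and the groups overlapped.

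The far end of H2-DMa was mostly highly methylated, but a tile of 3 positions inside the gene, from 34136001, was low. That low tile read 0%, 4.50% and 1.64% in WT and 6.25%, 7.62% and 8.30% in KO. Its groups did not overlap, and with a mean under 5% it was not tested. The tile from 34139001 to 34140000 held 18 positions just beyond the gene. It read 80.5%, 87.9% and 89.1% in WT and 92.9%, 93.3% and 89.6% in KO. The groups did not overlap, by a margin under 1 point, and the difference of 6.07 points did not pass (adjusted p = 0.163, limma-moderated). Without WT replicate 1 it was 3.41 points. At 34138344 in the neighbouring tile the libraries read 64.6%, 71.0% and 74.7% in WT and 100%, 90.8% and 98.4% in KO, a difference of 26.3 points (adjusted p = 0.216, limma-moderated). Over the gene and its flanks, H2-DMa was at 15.3% ± 1.20 in WT against 19.4% ± 1.27 in KO (SD, n = 3 per group), with no overlap and an adjusted p of 0.219 (limma-moderated). The difference of 4.10 points was 1.32 with CpGs weighted equally. Pooled over each run of neighbouring H2-DMa positions (gaps up to 1 kb), WT and KO libraries overlapped in every run. The last run, from 34136548 to 34139902, mixes the low tile with highly methylated positions. Its 26 positions from 34138237 on, pooled alone, separated without overlap. They were at 85.2% ± 5.15 in WT against 91.9% ± 1.48 in KO (SD, n = 3 per group).

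H2-DMb1 and H2-DMb2 encode beta chains of H2-M. H2-DMb2 had 28 positions in its flanks and 0 inside its span. Of these, 26 are also H2-DMa positions, from 34138237 to 34139902, and the values given above for them are its own too. The other 2 are shared with H2-DMb1. Over these 28, H2-DMb2 was at 77.8%, 87.1% and 88.0% in WT and 92.1%, 92.3% and 89.9% in KO. WT replicate 1 was the low library, the groups did not overlap, and the adjusted p was 0.317 (limma-moderated). The difference of 7.17 points was 3.92 without WT replicate 1.

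The 6 positions of H2-DMb1 inside the gene gave a tile at 82.8%, 82.2% and 84.2% in WT and 81.7%, 81.2% and 84.6% in KO. That tile differed by -0.57 points (adjusted p = 0.960, limma-moderated) and was the only 1 of the 20 tested tiles with the lower mean in KO. Before its start, position 34152118 read 29.0%, 63.8% and 39.5% in WT and 65.7%, 80% and 69.6% in KO. The groups did not overlap there, with 27.7 points between means (adjusted p = 0.607, limma-moderated). Position 34152101 nearby read 46.2%, 96.4% and 63.2% in WT and 52.5%, 72.3% and 63.6% in KO, with the lower mean in KO by 5.73 points, and the groups overlapped.

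**Figure D4:**
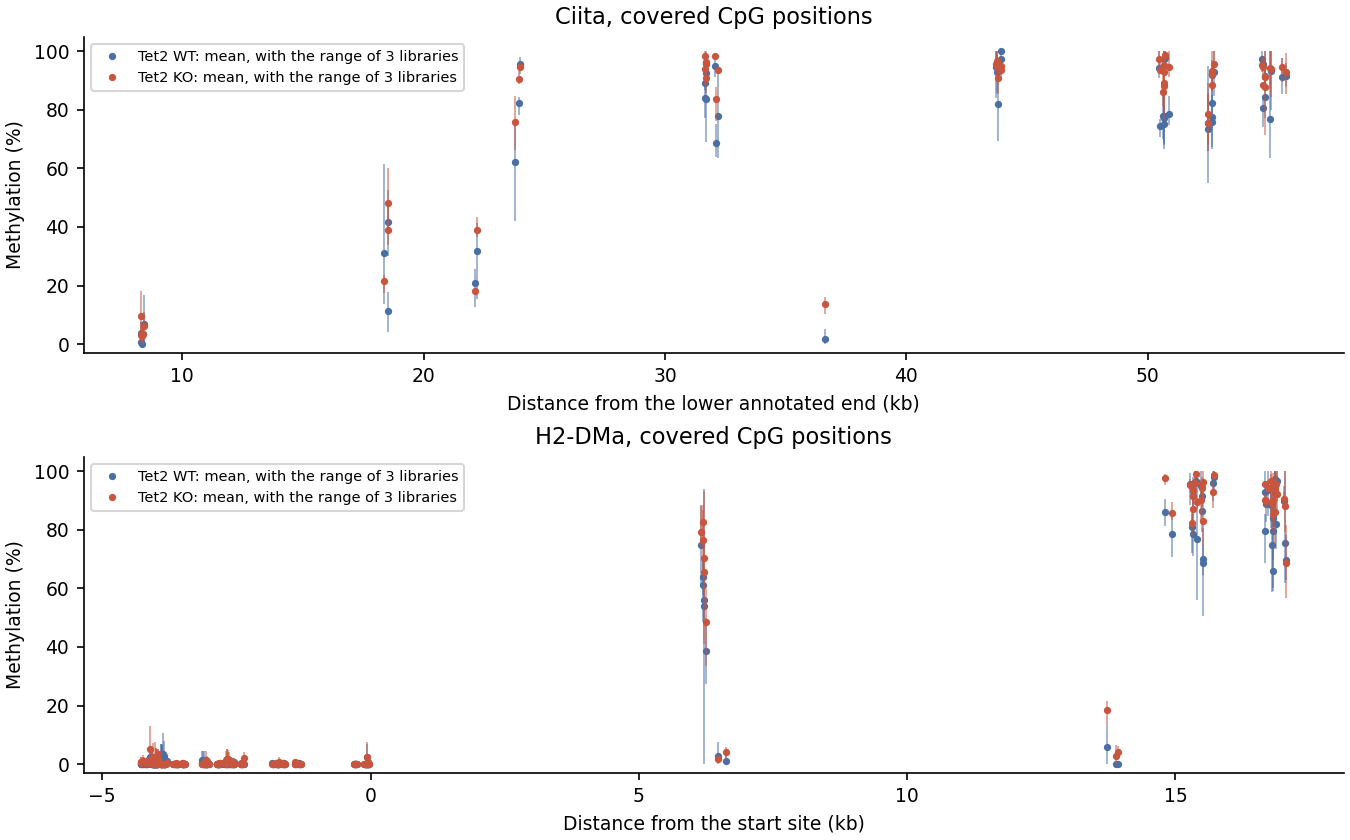
Methylation at each covered position of Ciita (top, distance from the lower annotated end) and H2-DMa (bottom, distance from the first start site). Points are group means, WT in blue and KO in red, and vertical lines span the lowest to the highest of 3 libraries. Both genes have low positions at one side, 5 at Ciita and 185 at H2-DMa, and highly methylated ones at the other. H2-DMa also has a low tile, from 34136001, near its highly methylated end.

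Ciita encodes the coactivator without which class II genes stay off, and in mice it is read from several alternative starts. It lies on chromosome 16 from 10480014 to 10531064 and had 53 covered positions, 38 of them tested. The KO mean was higher at 34 of the 38, against 58.9% of all tested positions. At 9 every KO library was above every WT library, against 8.3% of all tested positions. The 5 positions near 10488312 were at 2.99% ± 2.24 in WT against 5.18% ± 1.63 in KO (SD, n = 3 per group).

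The Ciita tile with the smallest p ran from 10530001 to 10531000, at the upper end of the gene, with 9 positions. It read 82.7%, 81.3% and 83.2% in WT and 95.4%, 92.9% and 91.7% in KO. WT libraries were within 2 points of each other and the KO libraries stood clear of them. The difference of 10.9 points had an adjusted p of 0.0587 (limma-moderated), above the 0.05 threshold. The tile with the largest difference, from 10512001, read 79.8%, 73.6% and 88.1% in WT and 89.7%, 92.6% and 93.6% in KO, 11.4 points apart (adjusted p = 0.256, limma-moderated). The tile from 10498001 read 18.7%, 31.5% and 31.3% in WT and 37.2%, 41.0% and 34.0% in KO. Its groups did not overlap, and the difference of 10.2 points did not pass (adjusted p = 0.477, limma-moderated).

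At single Ciita positions, 10498525 read 12.3%, 3.96% and 17.7% in WT and 46.9%, 36.7% and 33.7% in KO (adjusted p = 0.180, limma-moderated). At the nearby position 10498357 the KO mean was lower, with 61.4% in WT replicate 2 and 13.7% to 23.5% in the other 5 libraries. An isolated low position, 10516658, read 5%, 0% and 0% in WT and 10.4%, 15.9% and 14.9% in KO. Over the whole gene the levels were 67.6% ± 3.80 in WT against 69.9% ± 3.03 in KO (SD, n = 3 per group) and overlapped. The difference of 2.32 points was 0.142 without WT replicate 1, 0.616 without KO replicate 2, 0.821 with 1 kb flanks and 5.73 with CpGs weighted equally.

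Cd74 encodes the invariant chain, the chaperone that fills the groove of new class II molecules. It lies on chromosome 18 from 60803849 to 60812652, with 8 covered positions. The 3 nearest its lower end were unmethylated, at 0.627% ± 1.09 in WT against 0.0581% ± 0.101 in KO (SD, n = 3 per group). Within the gene, 3 positions from 60808136 to 60808159 gave a tile at 29.8%, 17.8% and 39.4% in WT and 57.3%, 65.8% and 43.3% in KO. KO replicate 3 was the low KO library and stood 3.86 points above the highest WT library. The difference of 26.4 points was as large as at H2-Oa but rested on 104 to 301 reads per library, and it did not pass (adjusted p = 0.192, limma-moderated).

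H2-Eb1 encodes the beta chain of I-E. All 8 tested positions had the higher mean in KO, by 3.65 to 17.5 points, against 58.9% of all tested positions. At 1 of them every KO library was above every WT library, against 8.3% of all tested positions. The tile inside the gene from 34314001, with 7 positions, read 45.3%, 48.0% and 72.0% in WT and 62.5%, 73.4% and 64.2% in KO. WT replicate 3 was among the KO values, and the difference of 11.6 points had an adjusted p of 0.452 (limma-moderated). With CpGs weighted equally the WT spread was smaller, and the tile was at 45.9% ± 3.07 in WT against 54.8% ± 2.74 in KO (SD, n = 3 per group). Without WT replicate 3 that tile was called (adjusted p = 0.0479). A tile at the edge of the window, from 34300001, read 37.1%, 60.3% and 65.4% in WT and 80%, 86.8% and 67.7% in KO (adjusted p = 0.15, limma-moderated). Its 3 positions lie just over 5 kb from the gene and are not among the 432.

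H2-Ab1 encodes the beta chain of I-A, the class II molecule of this strain. Of its 100 covered positions, 96 lay from 34263414 to 34265005 within the gene and had means under 5% over the 6 libraries. Together they were at 0.0966% ± 0.0743 in WT against 0.135% ± 0.0938 in KO (SD, n = 3 per group), on 14474 to 18665 reads per library. With means under 5%, these positions were not tested. The 4 other positions were partly methylated and each had the higher mean in KO. At 34268083 the libraries read 22.6%, 29.3% and 26.0% in WT and 47.6%, 42.9% and 52.9% in KO. The groups did not overlap, and the 21.9 points did not pass (adjusted p = 0.262, limma-moderated).

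H2-Aa encodes the alpha chain of I-A. Its 3 covered positions lay 4829 to 4978 bases before the start and were at 94.2% ± 4.06 in WT against 94.0% ± 2.17 in KO (SD, n = 3 per group). Their tile, which includes 1 position just outside the window, differed by 0.72 points (adjusted p = 0.984, limma-moderated). No position inside the gene was covered in all 6 libraries.

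Taken over each gene and its flanks, 9 of the 10 genes had the higher mean in KO, H2-Aa being the exception. The share of all gene regions with the higher mean in KO was not counted. Some differences were small, with 0.0632 points at H2-Ab1 and 1.39 at H2-DMb1, which was -0.382 without WT replicate 1. Every KO library was above every WT library in 3 of the 10, namely H2-Oa, H2-DMa and H2-DMb2, of which the last pair share positions. Among all tested gene regions 15.8% did so. At H2-DMa no whole run of neighbouring positions separated in this way when pooled, but the 26 positions shared with H2-DMb2 did. For each of the 3 the two-sided exact permutation test gave p = 0.1, the smallest that 3 libraries against 3 allow. Of the 7 regions that entered the fit over all genes, 0 were called by the limma-moderated test and 3 had an unadjusted p under 0.05, against 12.3% of all regions.

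A wider list of 20 genes of the class II pathway was read the same way. It held proteases and a reductase that prepare peptides, factors that bind the X and Y boxes, ligases that turn class II over, and costimulatory molecules. H2-Eb2 had 0 covered positions. Of 47 tested tiles, 3 were called higher and 0 lower, and 37 had the higher mean in KO, with a median difference of 3.12 points. Over all tested tiles 0.685% were called higher, 64.0% had the higher mean in KO and the median difference was 1.28 points. Of 243 tested positions, 6 were called higher and 0 lower, against 0.284% of all called higher, and the median difference was 5.05 points against 1.69 points over all. Among uncalled tiles, 1 at Marchf1 differed by 13.3 points without overlap of the groups (adjusted p = 0.334, limma-moderated). A tile at Cd40 went the other way, by -11.9 points, from 23.4% ± 18.8 in WT to 11.5% ± 4.52 in KO (SD, n = 3 each). Its groups overlapped, on 53 to 81 reads per library (adjusted p = 0.761, limma-moderated).

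Lgmn encodes legumain, an endosomal protease that opens antigens and the invariant chain. Its called tile, on chromosome 12 from 102426001, read 38.8%, 62.8% and 63.3% in WT and 76.7%, 84.2% and 84.4% in KO. The rise of 26.8 points had an adjusted p of 0.0465 (limma-moderated), and WT replicate 1 was far below the other WT libraries. With WT replicate 1 left out the tile was no longer called (adjusted p = 0.0908), and the same held for leaving out KO replicate 1, 2 or 3 (0.0951, 0.191 and 0.169). Ifi30 encodes a thiol reductase of the same compartment, and both called tiles in its window lie within the spans of its neighbours. The tile from 70757001 on chromosome 8, in Rab3a, rose from 52.3% ± 6.82 to 73.6% ± 1.28 (SD, n = 3 each; adjusted p = 0.0234, limma-moderated). The tile from 70768001, in Pik3r2, rose from 16.7% ± 7.68 to 35.1% ± 2.38 (SD, n = 3 each; adjusted p = 0.0313, limma-moderated). The former call was lost without WT replicate 1 and without KO replicate 1, 2 or 3, at adjusted p-values from 0.0818 to 0.112. The latter was lost without WT replicate 2 and without KO replicate 1, 2 or 3, at 0.0632 to 0.148. All 3 tile calls at Lgmn and Ifi30 were lost without moderation (adjusted p of 0.435 to 0.518), with limma on log2 ratios (0.387 to 0.426) and with all covered tiles (0.132 to 0.228).

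Creb1, whose product binds the X box, had a called position at 64600730 on chromosome 1. It read 33.8%, 41.0% and 59.8% in WT and 81.8%, 83.8% and 91.8% in KO (adjusted p = 0.0136, limma-moderated). Leaving out WT replicate 1, KO replicate 1 or KO replicate 3 ended the call, at adjusted p-values of 0.176, 0.0555 and 0.193. The call was also lost without moderation (0.594), with limma on log2 ratios (0.685), with all covered positions (0.495) and with the replicate number as a block (0.540). The Creb1 tile averaged 64.4% ± 14.9 in WT and 86.6% ± 1.92 in KO (n = 3 each, SD) and was not called (adjusted p = 0.0544, limma-moderated). Ciita partners Nfya, Nfyb, Nfyc and Rfxap were mostly covered in unmethylated stretches. At these 4 genes the KO mean differed from the WT mean by -0.01 to 0.356 points. For the partners Rfxank and Rfx5 this difference was 0.278 and 1.34 points, and the groups overlapped. Single tiles differed more there, but neither tile given here was called. In the Rfxank tile from 70135001 the KO mean was 9.82 points higher (adjusted p = 0.0855, limma-moderated). Every KO library was above every WT library in that tile. In the Rfx5 tile from 94952001 it was 9.15 points higher, with overlapping groups (adjusted p = 0.718, limma-moderated).

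Of 6 genes that lie among the class II genes on chromosome 17, 0 of 6 tested tiles were called in either direction, where 0.685% of all were called higher. The largest tile difference was 15 points, in the flank of Brd2 (adjusted p = 0.521, limma-moderated), where WT ranged from 53.7% to 93.2%. Position 34197020, within 5 kb of both Psmb8 and Tap1, which serve class I presentation, was called, 1 of 42 tested positions at these 6 genes against 0.284% of all. It read 2.36%, 0% and 5.58% in WT and 20.5%, 41.6% and 19.1% in KO (adjusted p = 0.000152, limma-moderated). The call held with each library left out in turn, at adjusted p-values from 1.92e-05 to 0.0238. It was lost without moderation (0.649), with limma on log2 ratios (0.679) and with all covered positions (0.609). With the replicate number as a block it was lost too (adjusted p = 0.540, limma-moderated).

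The cell type label was looked at through markers, whose methylation does not count cells. At the B cell genes, WT levels were 0.0971% at Cd79a, 8.93% at Cd79b, 30.2% at Pax5, 68.7% at Ms4a1 and 70.8% at Cd22. At the T cell genes they ran from 1.26% at Cd3d to 93.6% at Cd3e, and at the myeloid genes from 40.3% at Cd14 to 89.7% at Csf1r. The ranges of the marker lists overlapped. Tiles called higher in KO numbered 1 of 30 at 6 B cell markers, 0 of 15 at 6 T cell markers and 1 of 13 at 6 myeloid markers, of which Cd68 had 0 covered positions, against 0.685% of all tested tiles. The KO mean was higher in 26, 13 and 10 of these tiles, against 64.0% of all tested tiles. Median differences were 5.14, 0.946 and 2.28 points in the same order, against 1.28 points over all. At the 10 class II genes it was 5.80 points, with the KO mean higher in 19 of 20 tiles. The part that cells of other types might have in the H2-Oa values was not tested.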

How the data were processed

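Enhanced reduced representation bisulfite sequencing read 3 Tet2 WT and 3 Tet2 KO libraries. Per the submitters' processing notes, the aligner was Bismark and the genome build GRCm38. The sources used here give neither its version nor its settings. The deposited files list, per the file headers, the coverage count of each CpG on each strand, and its C and T calls in percent, with a lowest count of 10. Methylated and unmethylated read counts were rebuilt from these deposited values and came out whole at 100% of positions, given that percents are stored to 3 decimals. PCR copies cannot be told apart, so depth covers counting error only.

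Reads were summed over 1 kb tiles with at least 3 CpGs and over gene regions, the gene with 5 kb on either side, with at least 5. Each feature with a mean of 5% to 95% entered a quasi-binomial logistic model. Its dispersion was moderated across all features as limma does (Python 3.11.15, numpy 2.4.6, scipy 1.17.1, checked against limma 3.58.1 and on simulated data). P-values were adjusted by Benjamini-Hochberg over all features of a kind, and calls also needed group means 10 points apart. Group means are unweighted over libraries. The labels do not say whether replicates are separate mice, so the spread that p-values measure may be technical in part.

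Genes and promoter sequences came from RefSeq tables for GRCm38.p6, which hold no exons, so exon, intron and UTR were not used here. Named were all 10 genes with each called tile and position, or else the tested tile with the smallest p, and the tile with the largest difference. Of the pathway list and the neighbours, genes with a called tile or position were named, and some with large uncalled differences. The Ciita partners were named whatever their difference. Other positions were named after their values were seen. The genes and lists were chosen with earlier results of these data known. The alternatives tried are given with their effect in the closing section.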

Additional observations from a re-analysis of the deposited data

How the results depend on the processing

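The calls at H2-Oa depended on some settings. Member tile calls, 1 as reported, ranged from 1 to 2 with a library left out, the second being H2-Eb1 from 34314001 without WT replicate 3. They were 0 without moderation, 0 with limma on log2 ratios and 0 with all covered tiles. Member position calls, 1 as reported, ranged from 0 to 3 with a library left out. They were 0 without moderation, 0 with limma on log2 ratios, 0 with all covered positions, 2 at a coverage of 20 or more and 2 with strands added. The median difference of member tiles, 5.80 points, ranged from 4.32 to 8.0 with a library left out. Tiles with the higher mean in KO ranged from 18 to 20 of 20, and positions, 103 as reported, from 93 to 102 of 119. Differences of small size turned sign. With a library left out, the H2-Aa tile ranged from -0.96 points (without WT replicate 2) to 1.56, and the H2-DMb1 tile from -1.62 to 0.0844 (without KO replicate 2), against 0.26 with CpGs weighted equally. The H2-DMb1 region ranged from -0.38 (without WT replicate 1) to 2.30, and was at -0.57 with 1 kb flanks.

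The counts over all genes moved more. Tiles called higher, 569 as reported, were 124 to 1150 with a library left out, 0 without moderation, 0 with limma on log2 ratios, 8 with all covered tiles and 345 with at least 5 CpGs. Positions called higher, 1489 as reported, were 485 to 3427 with a library left out, 20 without moderation, 0 with limma and 104 with all covered positions. The cause was not tested. Samples with the same replicate number correlated by 0.0022 to 0.0229 in their deviations from group means. Such low correlations cannot exclude a shared batch, because the deviations include counting error. In the H2-Oa tile the replicate numbers stood in the same order in both groups. With the replicate block, 1 member tile was called, H2-Oa at an adjusted p of 0.000475 (limma-moderated), and 0 member positions (H2-Oa 34094879 at 0.540), with 886 tiles and 0 positions over the whole series. Gene regions gave 0 member calls in each setting run. Coverage limits H2-Ob and H2-Aa, with 3 covered positions each.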
